A study of Mus musculus with 44 samples.

Results

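The Slc25 family holds the mitochondrial carriers, proteins that mostly sit in the inner mitochondrial membrane and exchange nucleotides, phosphate, carboxylic acids, amino acids, cofactors and metal ions between the matrix and the cytosol. Members were taken as every gene whose symbol starts with Slc25a in the platform annotation. On the Affymetrix MOE430 2.0 arrays these were 74 probesets of 42 genes, of 38870 probesets of 17242 genes with values, and on the Illumina MouseRef-8 v2 arrays 37 probes of 29 genes, of 14185 probes of 9807 genes in the normalized table. In all 43 member genes were measured, 28 of them on both arrays.

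Adult, naïve C57BL/6J (B6) and DBA/2J (D2) mice, 2 inbred strains, were compared in RNA of the striatum, the input region of the basal ganglia. The Affymetrix arrays came from 20 mice, 5 females and 5 males of each strain, and the Illumina arrays from 24 other mice, all male, 12 of each strain. Each mouse gave 1 array, and no mouse was treated. The question was which genes differ in level between the strains, asked here of the mitochondrial carriers on each array type by itself.

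Neurons depend on this family for the supply of ATP. Adenine nucleotide translocases export ATP against ADP, the phosphate carrier brings in the phosphate from which ATP is made, and the aspartate/glutamate and oxoglutarate carriers form the malate-aspartate shuttle, which passes reducing equivalents from glycolysis into the matrix. Other members supply the cofactors, nucleotides, amino acids and iron that mitochondria use for their own genome, enzymes and heme.

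The Illumina results turned on single probes of 3 genes, and the first 30 of the 50 bases of these probes and of the other probes of the same genes are shown because probes of 1 gene gave different results. The sequences were decoded from the probe identifiers in the deposited table, in which the check character agreed for 14185 of 14185 probes, and are written 5′ to 3′ in lower case with no part marked.
Slc25a3 ILMN_2960467: ccattggtgctattcctaaattgtcccctc
Slc25a3 ILMN_2751046: cgtactgttgaagctttgtacaaatttgtg
Slc25a38 ILMN_2946905: ggagagaattgctgcaagttgtcctgattt
Slc25a38 ILMN_1256420: gactgcgctgtctgaagagccaggcacaag
Slc25a38 ILMN_2946901: tcctgccatgtctgagggcaagaggctcaa
Slc25a47 ILMN_2681001: gtgctggccacatgaagatcctggaacctg
The 2 Slc25a3 probes shared 0 bases at their ends, so no overlap of the 2 was seen. The ends of the Slc25a38 probes matched each other by 0 or 1 base, which does not show an overlap. The probes were not placed on transcripts. In the RefSeq annotation (GRCm38.p6) Slc25a3 lies on chromosome 10, Slc25a38 on chromosome 9 and Slc25a47 on chromosome 12.

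Several arrays stood apart from the others of their strain. At 390 probesets that separated the other Affymetrix arrays by strain, the array labelled B6 female 64 had a median position of 0.518 on a scale with D2 at 0 and B6 at 1, while the other B6 arrays had positions of 1.01 to 1.08. Among the Illumina arrays D2 arrays 3, 5, 6 and 12 had the lowest mean bead signals, 599 to 985 against 1223 to 1822 in B6, and D2 array 6 was the lowest or the highest of all arrays at 15 of the 37 member probes and at 38.6% of all probes. Markers of medium spiny neurons were bright in both strains, with a mean over the brightest probeset of each gene of 11.50 in B6 and 11.34 in D2 on the Affymetrix arrays. None of 7 was called there and none of 6 on the Illumina arrays. The lowest adjusted p were at Rgs9 on the Affymetrix arrays (−0.48, adjusted p = 0.0261) and at Drd2 on the Illumina arrays (0.40, adjusted p = 0.0102). Drd2 differed by 0.35 on the Affymetrix arrays (adjusted p = 0.0883). Some markers of other cells did differ. On the Illumina arrays 4 of 5 oligodendrocyte genes and 3 of 5 microglial genes (C1qa, C1qb and C1qc) were higher in B6. So was 1 of 3 red cell genes (Hbb-bt), while 1 of 6 astrocyte genes (Slc1a2) was higher in D2. On the Affymetrix arrays these counts were 1 of 5, 2 of 5 (C1qb and C1qc), 0 of 2 and 1 of 6. Microglial genes other than the C1q chains were not called. Aif1 differed by −0.14 and Cx3cr1 by 0.10 on the Illumina arrays, and Csf1r by −0.055 and Cx3cr1 by −0.063 on the Affymetrix arrays. The mean over the Illumina oligodendrocyte list was 12.57 to 13.02 in B6 and 12.11 to 12.60 in D2, and its part in the member results was not tested.

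A few single probesets of the carriers differed between the strains. On the Affymetrix arrays 4 of 42 genes were called, at 4 of 74 probesets: Slc25a3 and Slc25a53 were higher in B6, and Slc25a31 and Slc25a36 were higher in D2. A probeset was called at an adjusted p under 0.01 (limma with sex as a covariate, Benjamini-Hochberg over all 38870 probesets), which 7.18% of all probesets met, 3.67% higher in B6 and 3.51% higher in D2, and which 10.3% of all genes met at a probeset. The strains did not overlap at 1 member probeset, against 2.46% of all probesets. The median difference, B6 minus D2, was −0.015 on the log2 scale over the members and −0.025 over all probesets. At 54 of the 74 member probesets (73%) the difference was under 0.1 in size, against 65.3% of all probesets, and 13 (17.6%) passed an unadjusted p under 0.05, against 22.4% of all probesets.

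On the Illumina arrays 3 of 29 genes were called, at 3 of 37 probes: Slc25a47 was higher in B6, and Slc25a38 and 1 probe of Slc25a3 were higher in D2. Of all probes 8.64% were called, with B6 above D2 at 4.69% and D2 above B6 at 3.95%, and 10.5% of all genes were called at a probe. No member probe had strains that did not overlap, against 2.4% of all probes. Values there are on the variance-stabilized (VST) scale, which follows log2 at bright probes and is compressed at dim ones, so differences are not given as folds. The median difference was −0.02 over the members and −0.02 over all probes. In bulk tissue fewer cells of a type and less RNA per cell cannot be told apart, and this holds for all differences given here.

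**Figure D1:**
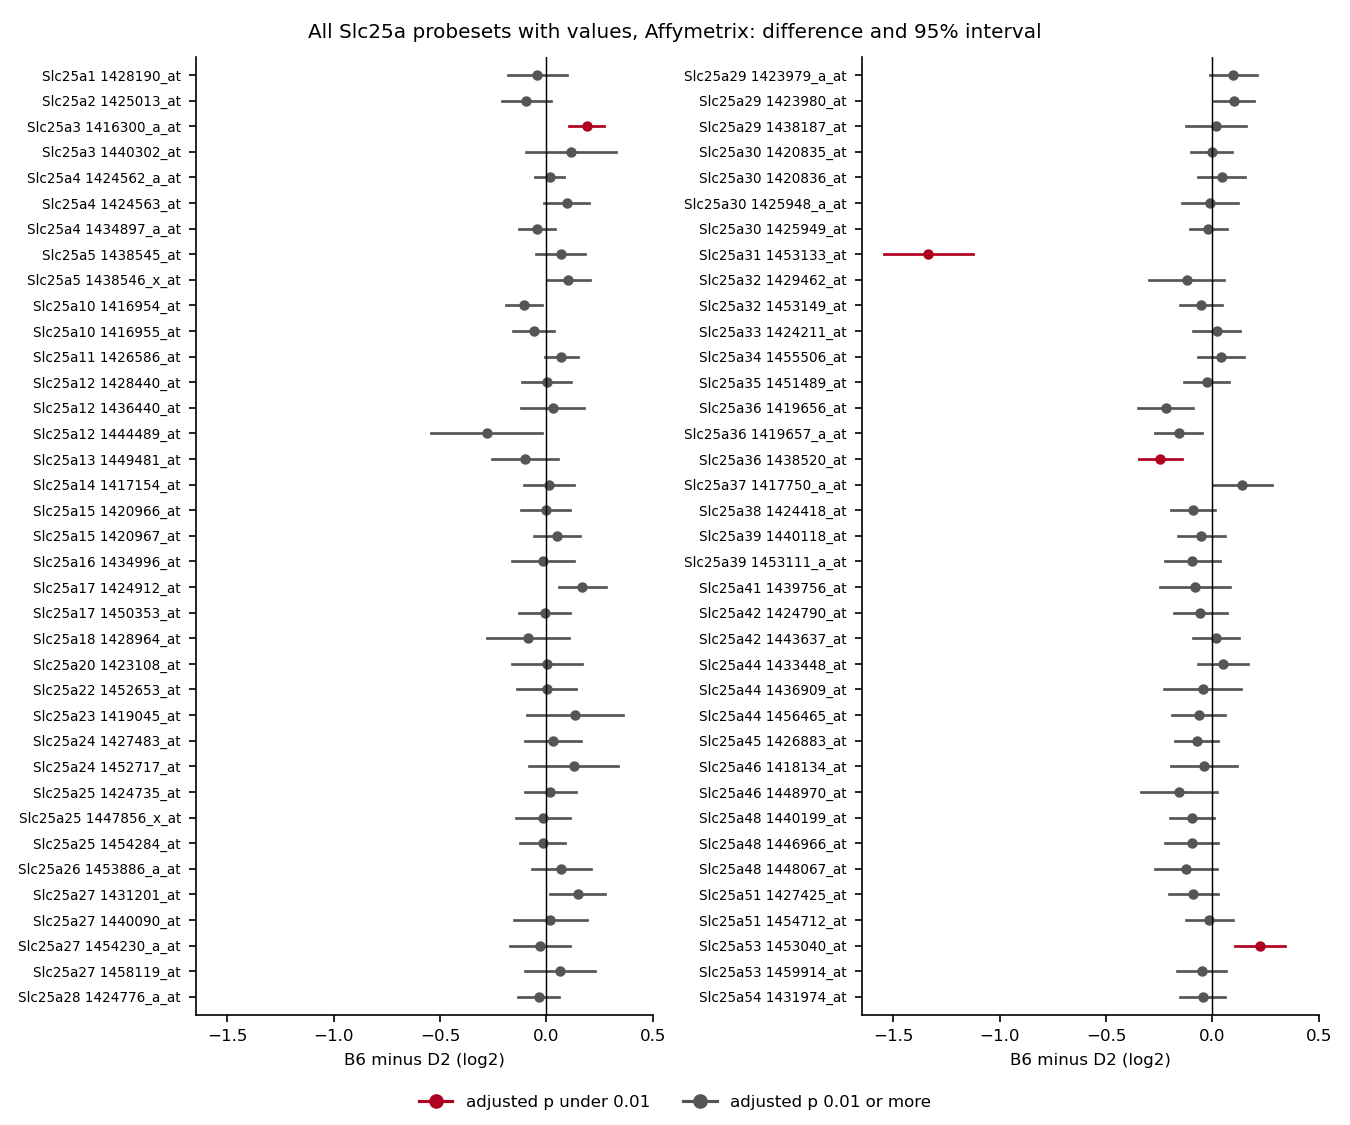
Differences between strains (B6 minus D2, log2) at all 74 Slc25a probesets with values on the Affymetrix arrays, with 95% intervals from limma (10 B6 and 10 D2 arrays). Points right of the line are higher in B6, and the 4 probesets with an adjusted p under 0.01 are in red, with Slc25a31 far to the left at −1.34.

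Of 8 adenine nucleotide and phosphate carriers measured on the Affymetrix arrays, Slc25a3 was called with B6 above D2 and Slc25a31 with D2 above B6. Of 3 on the Illumina arrays 1 was called, Slc25a3, at a probe that was higher in D2. Slc25a31, an adenine nucleotide translocase best known from male germ cells in mice, had a lowest value of 2.9, a median of 3.17 and a highest value of 3.93 in B6 at probeset 1453133_at, against 4.23, 4.525 and 4.8 in D2. Every D2 array lay above every B6 array. The B6 array nearest to D2 was female 64, and the other 9 B6 arrays ended at 3.34.

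The difference at Slc25a31 was −1.34 (standard error 0.10, adjusted p = 1.74e-09). Without B6 female 64 it was −1.42 (adjusted p = 4.14e-12). Its B6 mean was the lowest of the 74 member probesets, and its mean over all arrays lay below that of the median probeset, at 6.187. Whether it lay above background was not checked, since detection calls were not used, so the difference is not given as a fold of RNA. The gene has no probe in the Illumina normalized table. The mean was 3.21 ± 0.29 in B6 and 4.55 ± 0.18 in D2 (SD, n = 10 each).

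Slc25a3, the phosphate carrier, was called on both arrays, in opposite directions. At Affymetrix probeset 1416300_a_at it had a lowest value of 12.39, a median of 12.605 and a highest value of 12.68 in B6, against 12.34, 12.39 and 12.44 in D2. Of the B6 arrays 9 lay above all D2 arrays, and the exception was female 64. The difference was 0.19 (standard error 0.04, adjusted p = 0.00225), or 1.14-fold, and 0.21 without B6 female 64 (adjusted p = 3.33e-04). Its other probeset, 1440302_at, differed by 0.12 (adjusted p = 0.566), with values of 6.07 to 7.0 in B6 and 6.13 to 6.97 in D2.

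**Figure D2:**
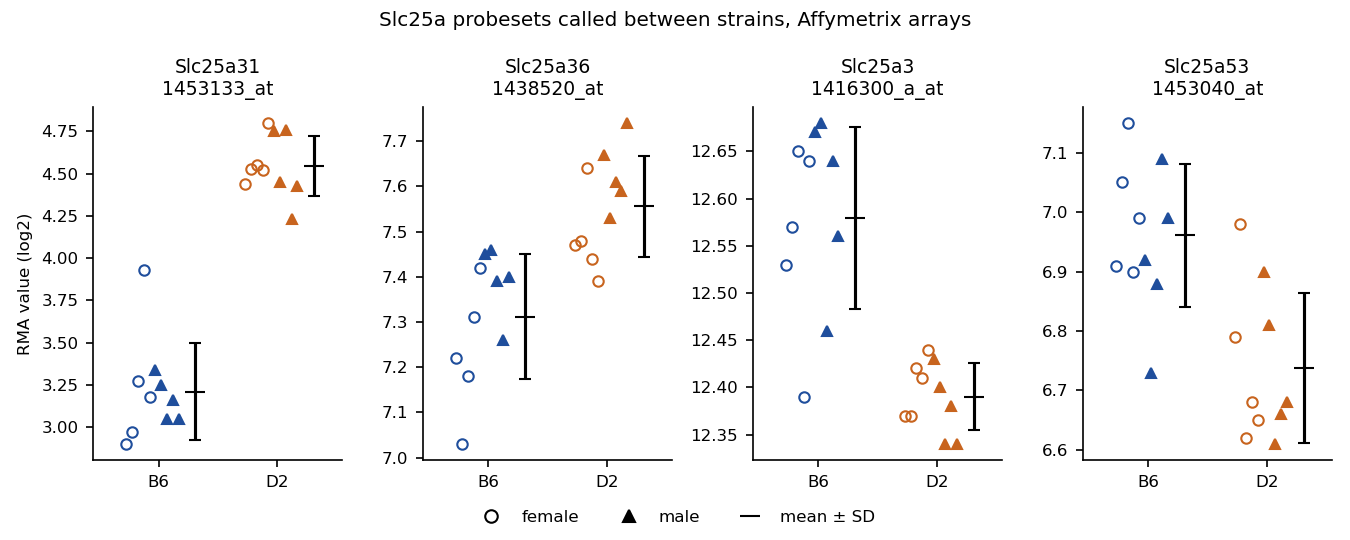
RMA values (log2) of the 4 Slc25a probesets called between strains, 1 point per mouse, B6 on the left and D2 on the right of each panel, open circles for females and triangles for males, with the mean ± SD (n = 10). Slc25a31 has no overlap between the strains, and at Slc25a3 a single B6 female lies among the D2 values.

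On the Illumina arrays the 2 probes of Slc25a3 pointed in opposite directions. At ILMN_2960467 the B6 arrays had a lowest value of 11.67, a median of 11.90 and a highest value of 12.10, and the D2 arrays 10.87, 12.62 and 12.93. Of the D2 arrays 11 lay above all B6 arrays, and D2 array 5 lay below all of them. The difference was −0.61 (standard error 0.15, adjusted p = 0.00565), and without D2 array 5 it was −0.76 (adjusted p = 6.21e-10), with 11 D2 arrays at 12.42 to 12.93 and no overlap. Leaving out 1 array ended the call in 7 cases, those of B6 arrays 2 and 8 and of D2 arrays 2, 3, 7, 10 and 12, with adjusted p of 0.0102 to 0.0116.

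At ILMN_2751046 the direction was the one seen on the Affymetrix arrays. The B6 arrays had a lowest value of 13.87, a median of 14.40 and a highest value of 14.89, and the D2 arrays 12.60, 14.11 and 14.36. Of the B6 arrays 7 lay above all D2 arrays. The 4 lowest values of all were those of D2 arrays 5, 6, 12 and 3, at 12.60, 13.53, 13.58 and 13.68. These are the 4 arrays of lowest mean signal. The difference was 0.44 (standard error 0.16, adjusted p = 0.0678), which was not called, and without D2 array 5 it was 0.33 (adjusted p = 0.0843). Without the 4 dimmest D2 arrays the difference was 0.16. The Illumina probes were not screened here for SNPs between the strains, and at either probe hybridization and RNA level cannot be told apart.

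**Figure D3:**
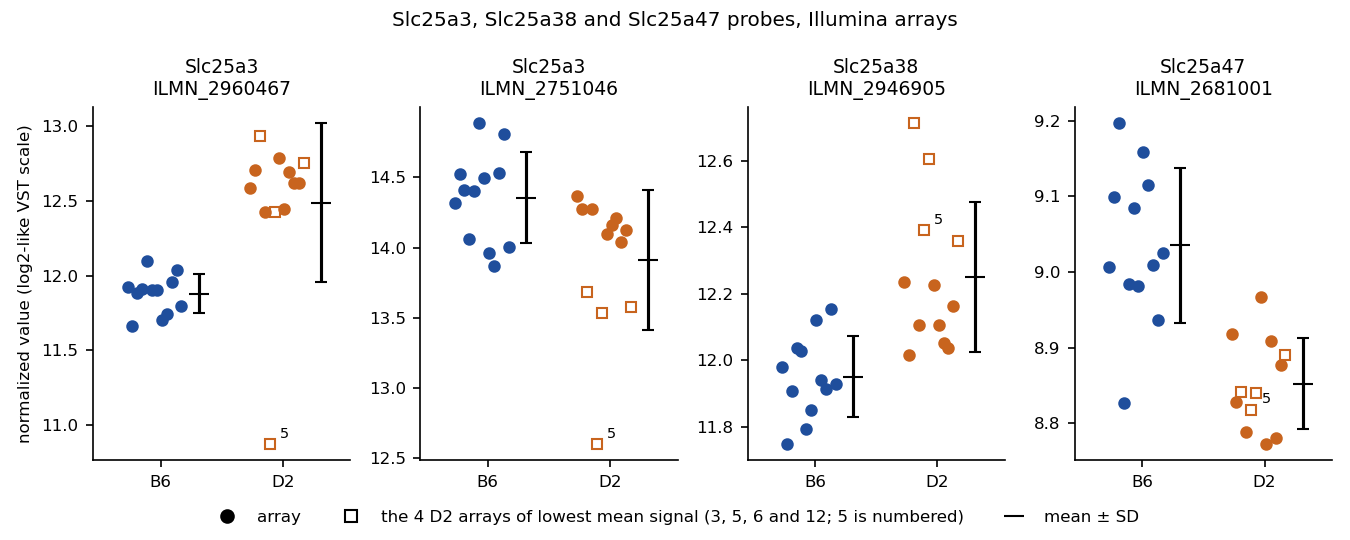
Normalized Illumina values (VST scale) of both Slc25a3 probes and of the called Slc25a38 and Slc25a47 probes, 1 point per mouse, B6 on the left and D2 on the right, open squares for the 4 D2 arrays of lowest mean signal, with the mean ± SD (n = 12). At the first probe 11 D2 arrays lie above B6 and array 5 below. At the second B6 is higher and the open squares are the 4 lowest values. At Slc25a38 the open squares are the 4 highest values.

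The adenine nucleotide translocases of somatic tissue, Slc25a4 and Slc25a5, were not called. The 3 probesets of Slc25a4 differed by −0.04, 0.02 and 0.10 (adjusted p of 0.276 or more). The brightest, 1424562_a_at, had 12.83 ± 0.05 in B6 and 12.81 ± 0.04 in D2 (SD, n = 10 each), with a 95% interval of the difference of −0.05 to 0.08. Slc25a5 differed by 0.07 and 0.10 at its Affymetrix probesets and by 0.12 at its Illumina probe (adjusted p = 0.201). Its Affymetrix values come from 2 of 8 annotated probesets, since 6 had no value. The calcium-regulated ATP-Mg/phosphate carriers Slc25a23 (0.13, adjusted p = 0.528) and Slc25a25 (−0.02 to 0.02 at 3 probesets, and 0.14 at the Illumina probe) were not called either.

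Carriers of di- and tricarboxylates and of glutamate and aspartate gave no call on either array, with 3 and 4 genes measured on the Affymetrix arrays and 3 and 2 on the Illumina arrays. The citrate carrier Slc25a1 differed by −0.04 on the Affymetrix arrays and by −0.01 and −0.20 at its Illumina probes (adjusted p of 0.173 or more). The dicarboxylate carrier Slc25a10 differed by −0.11 and −0.06 on the Affymetrix arrays and by −0.06 on the Illumina arrays, where its adjusted p was 0.25. Slc25a11, the oxoglutarate carrier of the malate-aspartate shuttle, differed by 0.07 on the Affymetrix arrays (95% interval −0.01 to 0.15) and by 0.07, 0.08 and −0.11 at its Illumina probes. These small values pointed in both directions, and none of their tests passed.

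Slc25a12, or aralar, the aspartate/glutamate carrier of neurons, differed by 0.00, 0.03 and −0.28 at its 3 probesets (adjusted p = 0.182 for the last), and by 0.13 at its Illumina probe. At probeset 1428440_at it had 10.53 ± 0.16 in B6 and 10.53 ± 0.05 in D2 (SD, n = 10 each), with a 95% interval of −0.11 to 0.12. Of the glutamate carriers, Slc25a22 had 10.03 ± 0.14 in B6 and 10.03 ± 0.16 in D2 (SD, n = 10 each). Slc25a18, the glutamate carrier found in astrocytes, differed by −0.09 on the Affymetrix arrays (adjusted p = 0.65) and by −0.25 on the Illumina arrays (adjusted p = 0.13). Of 6 astrocyte genes 1 was called on each array, Slc1a2, higher in D2 by −1.54 and −0.45. The median over the list was −0.08 on both. At the probes with the lowest adjusted p the other genes were not called. Gja1 (−0.33 and −0.18), Aqp4 (−0.25 and −0.10), Slc1a3 (−0.19 and −0.07) and Gfap (−0.19 and −0.09) were also higher in D2 on the Affymetrix and Illumina arrays. At these probes only Aldh1l1 had the other direction, at 0.08 and 0.04. Over all probes of the list the differences ranged from −1.54 to 0.30 at 20 Affymetrix probesets and from −0.45 to 0.18 at 10 Illumina probes. The part of the astrocyte genes in the Slc25a18 values was not tested.

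In a list of carriers of other amino acids, carnitine and the methyl donor S-adenosylmethionine, none of 9 genes was called on the Affymetrix arrays. On the Illumina arrays 2 of 8 were called, Slc25a47 higher in B6 and Slc25a38 higher in D2. The placing of Slc25a47 in this list was not tested. Slc25a38 brings glycine into mitochondria for heme synthesis. At ILMN_2946905 its lowest value was 11.75, the median 11.93 and the highest 12.16 in B6, against 12.02, 12.20 and 12.71 in D2. The strains overlapped, with 8 B6 arrays below all D2 arrays and 7 D2 arrays above all B6 arrays. The difference was −0.30 (standard error 0.07, adjusted p = 0.00454).

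The 4 highest Slc25a38 values at this probe were those of D2 arrays 3, 6, 5 and 12, at 12.71, 12.60, 12.39 and 12.36, which are the arrays of lowest mean signal. Without these 4 arrays the difference was −0.17 (adjusted p = 0.0243), and without arrays 5 and 6 it was −0.25 (adjusted p = 0.0141), neither of which met the threshold. The median bead signal of the probe before normalization was 4895 in B6 and 4933 in D2. The other probes of the gene differed by −0.11 (ILMN_1256420, adjusted p = 0.248) and 0.03 (ILMN_2946901, adjusted p = 0.753), and the Affymetrix probeset by −0.09 (adjusted p = 0.303). The red cell gene Hbb-bt was higher in B6 on the Illumina arrays, by 1.06, at a probe that was not screened here for SNPs. The other red cell genes there, Hba-a1 (0.54, adjusted p = 0.0716) and Alas2 (0.14, adjusted p = 0.0509), were not called. The part of red cells in the Slc25a38 values was not tested.

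**Figure D4:**
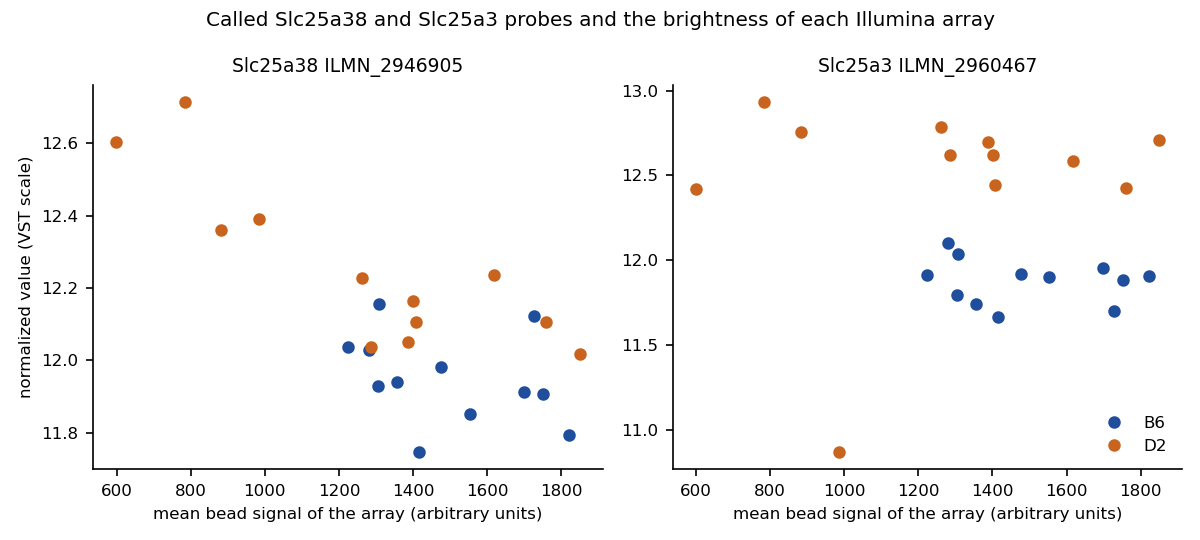
Normalized values (VST scale) of the called Slc25a38 and Slc25a3 probes against the mean bead signal of each Illumina array (arbitrary units), B6 in blue and D2 in orange. At Slc25a38 the 4 dimmest D2 arrays have the 4 highest values, while at Slc25a3 D2 array 5, at a mean signal of 985, lies apart at 10.87.

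Slc25a47, a carrier found mainly in liver in mice, was dim on the Illumina arrays. At ILMN_2681001 the lowest value was 8.83, the median 9.02 and the highest 9.20 in B6, against 8.77, 8.84 and 8.97 in D2. Of the B6 arrays 10 lay above all D2 arrays. The difference was 0.18 (standard error 0.04, adjusted p = 6.81e-04). The probe was detected (detection p under 0.05) on 11 of the 12 arrays of B6 and 2 of the 12 of D2, and was thus not above background on most D2 arrays. The median bead signal was 365 in B6 and 257 in D2, and no Affymetrix probeset of the gene has values.

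Slc25a20, the carnitine/acylcarnitine carrier of fatty acid oxidation, had 8.01 ± 0.18 in B6 and 8.01 ± 0.19 in D2 (SD, n = 10 each) on the Affymetrix arrays, and differed by −0.00 and 0.01 at its Illumina probes. Slc25a44, a carrier of branched-chain amino acids, differed by −0.07 to 0.05 at 3 probesets and by −0.13 at its Illumina probe (adjusted p = 0.315). None of these differences was called.

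**Figure D5:**
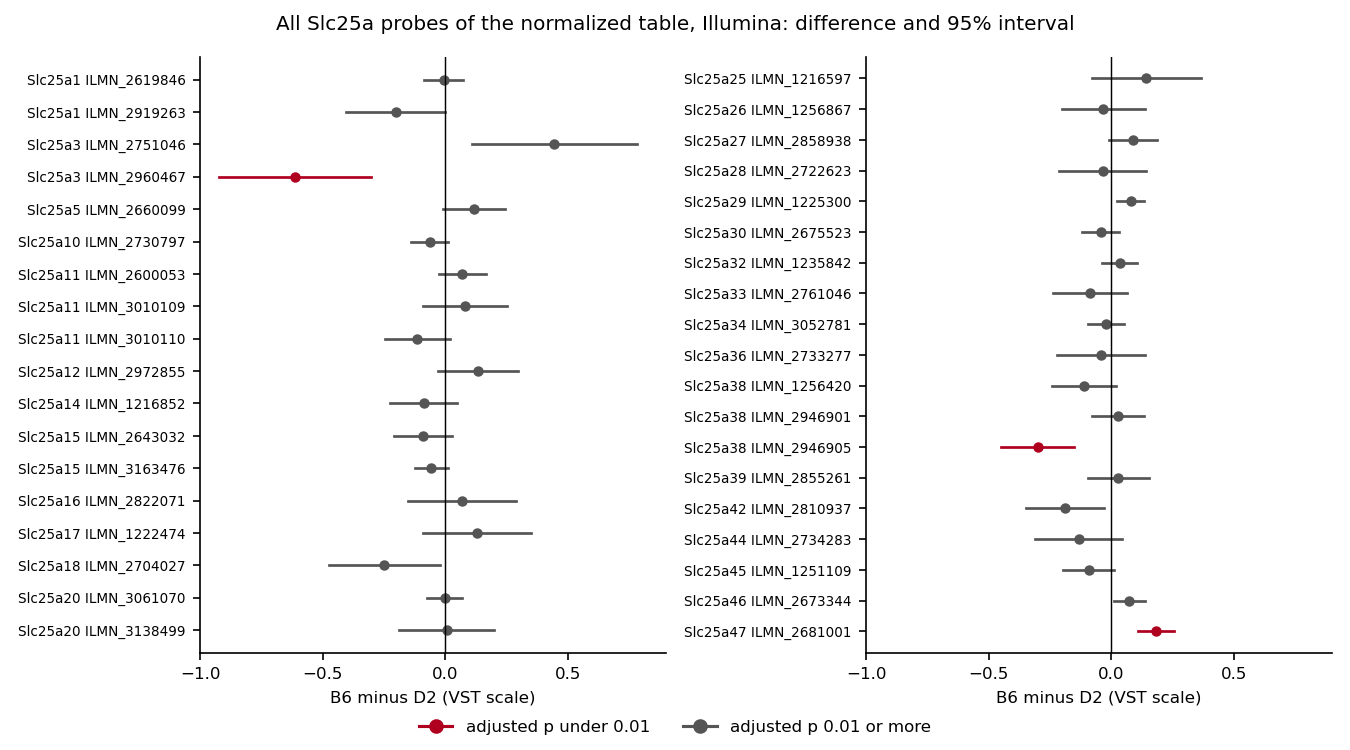
Differences between strains (B6 minus D2, VST scale) at all 37 Slc25a probes of the Illumina normalized table, with 95% intervals from limma (12 B6 and 12 D2 arrays). The 3 probes with an adjusted p under 0.01 are in red, and the Slc25a3 probes lie on opposite sides of 0, at −0.61 and 0.44.

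Of the carriers of cofactors and nucleotides, 1 of 7 genes was called on the Affymetrix arrays, Slc25a36 higher in D2, and none of 6 on the Illumina arrays. Slc25a36 carries pyrimidine nucleotides, which mitochondria use to copy and transcribe their genome. At probeset 1438520_at the lowest value was 7.03, the median 7.35 and the highest 7.46 in B6, against 7.39, 7.56 and 7.74 in D2. The strains overlapped, with 5 B6 arrays below all D2 arrays and 8 D2 arrays above all B6 arrays. The difference was −0.24 (standard error 0.05, adjusted p = 0.00108), a level 1.18-fold higher in D2, and −0.25 without B6 female 64 (adjusted p = 0.00114).

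The other 2 probesets of Slc25a36 had the same direction and were not called. They differed by −0.22 (1419656_at, adjusted p = 0.0203) and −0.16 (1419657_a_at, adjusted p = 0.0599). The Illumina probe differed by −0.04 (adjusted p = 0.776), with values of 9.65 to 10.61 in B6 and 9.86 to 10.57 in D2. The 95% interval at that probe was −0.22 to 0.14.

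Slc25a17, a carrier of cofactors in the peroxisomal membrane, differed by 0.17 at probeset 1424912_at (adjusted p = 0.0436), which did not meet the threshold, by −0.01 at its other probeset and by 0.13 at its Illumina probe. Slc25a51, which brings NAD+ into mitochondria, differed by −0.09 and −0.01 on the Affymetrix arrays, with an adjusted p of 0.372 or more. Slc25a16 differed by −0.02 on the Affymetrix arrays and by 0.07 on the Illumina arrays, where its adjusted p was 0.696. Neither gene was called.

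Carriers of iron and glutathione were not called on either array (3 and 2 genes). Slc25a37, or mitoferrin 1, which supplies iron to developing red cells, had a lowest value of 8.28, a median of 8.405 and a highest value of 8.87 in B6, against 8.17, 8.32 and 8.58 in D2, a difference of 0.14 (adjusted p = 0.213). The red cell genes Alas2 and Hba-a1 differed by 0.40 and 0.08 on the same arrays, with an adjusted p of 0.0905 or more, and their part in that value was not tested. Slc25a28, mitoferrin 2, differed by −0.04 on both arrays. Slc25a39, a glutathione carrier, differed by −0.05 and −0.10 on the Affymetrix arrays and by 0.03 on the Illumina arrays, and its relative Slc25a40 had no values.

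Carriers related to the uncoupling proteins were not called on either array (3 genes on each). Slc25a27, or UCP4, which is found in brain, differed by −0.03 to 0.15 at 4 probesets (lowest adjusted p = 0.15) and by 0.09 at its Illumina probe. Slc25a14, or UCP5, had 10.25 ± 0.13 in B6 and 10.23 ± 0.11 in D2 (SD, n = 10 each), and differed by −0.09 on the Illumina arrays. Slc25a46, a member of the outer mitochondrial membrane that takes part in mitochondrial shape, differed by −0.04 and −0.16 on the Affymetrix arrays and by 0.07 on the Illumina arrays (adjusted p = 0.11). That probe was detected on 8 arrays of B6 and 1 of D2.

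Among members without a settled substrate, 1 of 4 genes was called on the Affymetrix arrays, Slc25a53, and none of 1 on the Illumina arrays. At probeset 1453040_at Slc25a53, an X-linked gene, had, to 1 decimal, a lowest value of 6.7, a median of 7.0 and a highest value of 7.2 in B6, against 6.6, 6.7 and 7.0 in D2. The strains overlapped, with 5 B6 arrays above all D2 arrays and 6 D2 arrays below all B6 arrays. The difference was 0.22 (standard error 0.06, adjusted p = 0.00991), and its other probeset, 1459914_at, differed by −0.05 (adjusted p = 0.661). The call was lost on leaving out any 1 of 16 of the 20 arrays, all but B6 arrays 64 and 67 and D2 arrays 72 and 76, with adjusted p of 0.0101 to 0.0222, while the difference stayed at 0.20 to 0.25 over all 20 such fits. It was also lost with a trended, robust variance model (adjusted p = 0.0133).

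Sex was tested on the Affymetrix arrays, and no carrier was called. At the same threshold 0.0412% of all probesets were called between males and females. Differences, males minus females, ranged from −0.14 to 0.17 over the 74 probesets, and 4 had an unadjusted p under 0.05, against 4.39% of all probesets. These were 2 probesets of Slc25a36, 1 of Slc25a29 and 1 of Slc25a30. The 5 probesets of the X-linked members Slc25a5, Slc25a14 and Slc25a53 differed by −0.05 to 0.09. For strain by sex no member was called and 0% of all probesets were called by limma, and 2 member probesets had an unadjusted p under 0.05, 1 each of Slc25a15 and Slc25a54, against 2.56% of all probesets.

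Of 21 members with several Affymetrix probesets, 10 had differences in both directions, against 48.5% of all 7612 genes with several probesets. Of 6 members with several Illumina probes 4 did, against 46.8% of all 2563 such genes. No gene with several probesets or probes was called at all of them. The Illumina table has probes for 2 of the 4 Affymetrix calls, and the Affymetrix table has values for 2 of the 3 Illumina calls. Slc25a3 was the gene called on both, 25% of the Affymetrix list and 33.3% of the Illumina list, with differences of 0.19 and −0.61 at the probes with the lowest adjusted p. At those probes 14 of the 28 genes measured on both arrays had the same direction and 14 the opposite one. No share over all genes measured on both arrays is given here, so these counts do not show whether carriers differ from other genes.

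Other genes of mitochondrial transport were set beside the family. Of 22 such genes measured on the Affymetrix arrays 1 was higher in B6 and 3 were higher in D2, while 10.3% of all genes were called in either direction. Of 19 on the Illumina arrays none was higher in B6 and 2 were higher in D2, while 10.5% of all genes were called. Abcb8, an ABC transporter of the inner membrane, was higher in D2 on both arrays, by −0.90 (adjusted p = 6.20e-07) and by −0.58 (adjusted p = 6.96e-05). The sideroflexins Sfxn4 (−0.73) and Sfxn2 (−0.49), relatives of a serine carrier, were higher in D2 on the Affymetrix arrays, and Letm1, a cation exchanger, was higher in B6 by 0.20. The outer membrane channel Vdac2 was higher in D2 on the Illumina arrays, by −0.25. On the other array type Vdac2 (−0.05, adjusted p = 0.424), Sfxn4 (−0.25, adjusted p = 0.232) and Letm1 (0.05, adjusted p = 0.696) were not called. The median difference over these lists was −0.00 on the Affymetrix arrays and −0.04 on the Illumina arrays.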

How the data were processed

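The Affymetrix values were deposited by the authors on a log2 scale after robust multichip averaging of perfect-match probes, with probes that span a SNP or match several places masked. The authors' Illumina values are on a VST scale (treated as log2 values) and are equal in distribution on every array. The signal intensity of each bead type and its detection p-value were deposited by the authors from GenomeStudio. The labels also name MAS5 5.0, whose calls were not used. Linear models (R 4.3.3, limma 3.58.1, statmod 1.5.0) gave B6 minus D2 for every probeset and probe with no filter on level. The Affymetrix model also held sex, and moderated p-values were adjusted over each whole table by Benjamini and Hochberg, with calls at 0.01. The tests were checked on simulated data. Each gene was counted by whichever probe had the smallest adjusted p. Replicates are separate mice, and their number limits the precision.

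The annotation lists 93 Slc25a probesets, of which 19 have no value, and 1 further probeset that names several genes was not counted. All members called on an array were given in full, a list of 23 carriers was named whatever their values, and others were given by counts and ranges, or by name where such a count was small. The members and lists were chosen with earlier results of these data known. Alternatives covered normalization, filters, variance models, array weights, single sexes and leaving out arrays.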

Additional observations from a re-analysis of the deposited data

Results flagged for a closer look

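At 7 of 94 groups, the B6 or D2 arrays at the 47 Affymetrix probesets of named carriers, 1 array lay far from the others for the range of its group, and chance gives about 1 in 20 groups. At Slc25a31 (1453133_at) the array labelled B6 female 64 was the highest at 3.93, and the next B6 value was 3.34. At Slc25a3 (1440302_at) B6 male 67 was the lowest at 6.07, below 6.71, and the same array was the highest at Slc25a18 (1428964_at), at 9.90 above 9.44. At Slc25a36 (1419656_at) B6 female 62 was the lowest at 6.59, below 6.86. At Slc25a25 (1424735_at) B6 male 69 was the highest at 9.24, above 8.98. At Slc25a28 (1424776_a_at) B6 female 63 was the lowest at 8.82, below 8.97. At Slc25a53 (1459914_at) D2 female 74 was the lowest at 7.44, below 7.54. No strain difference of a carrier differed between the sexes past the threshold.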

How the results depend on the processing

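On the Affymetrix arrays 4 carriers were called, 3 to 4 when 1 array was left out, and 1 in females alone and 1 in males alone, Slc25a31 in each. With the fewer arrays of 1 sex the other differences had the same direction, in females and in males −0.252 and −0.236 at Slc25a36 1438520_at, 0.154 and 0.224 at Slc25a3 1416300_a_at, and 0.256 and 0.19 at Slc25a53 1453040_at. On the Illumina arrays 3 were called, 2 to 4 when 1 array was left out, 5 with array weights (Slc25a3, Slc25a12, Slc25a38, Slc25a42 and Slc25a47) and 1 with the replicate number as a block (Slc25a47). With background correction from the detection p-values (neqc) 2 were called, Slc25a29 and Slc25a47, and the called probes of Slc25a38 (−0.32, adjusted p = 0.0158) and Slc25a3 (−0.63, adjusted p = 0.0103) were not. Either filter on detection left 2, Slc25a3 and Slc25a38, since Slc25a47 was not tested under it. Same-numbered Illumina arrays did not deviate together (r of −0.424 to 0.278, 3 of 12 over 0.1, and 0 closest to their own number). Whether same-numbered arrays shared a chip or a day was not tested. Without D2 arrays 5 and 6, an alternative chosen after seeing the data, 3 genes were called, Slc25a3, Slc25a42 and Slc25a47. For sex and for strain by sex the count was 0 under every alternative run, with 0 to 0 on leaving out 1 array. With log2 bead signals centred on each array's median, which put the median difference of all Illumina probes at 0.137, against −0.02 as deposited, and the share of calls higher in B6 at 82.3%, against 54.2%, the difference at ILMN_2960467 of Slc25a3 was −0.32 (adjusted p = 0.313) and at ILMN_2946905 of Slc25a38 −0.01 (adjusted p = 0.966). Slc25a31 and Slc25a47 were called in all 28 and all 34 alternatives that tested them. The direction turned only at probes that were not called. Slc25a53 1459914_at was 0.026 in males alone (−0.05 over both sexes). Slc25a36 ILMN_2733277 (−0.042 over all arrays) was 0.18 with centred signals, and −0.0794 to 0.0104 on leaving out 1 array, above 0 without B6 array 8. Slc25a38 ILMN_2946901 (0.0274 over all arrays) was −0.0363 with array weights, −0.0646 without the 4 dimmest D2 arrays, −0.00977 without D2 arrays 5 and 6, and −0.00655 to 0.0456 on leaving out 1 array, below 0 without D2 array 6. Causes were not tested.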
